A study of Mus musculus with 22 samples.

Results

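The lipoprotein lipase system and the genes for fatty acid uptake were followed here in fat of mice that had breathed less oxygen for some hours. The group has 8 genes, Lpl, Gpihbp1, Lmf1, Angptl4, Cd36, Vldlr, Fabp4 and Fabp5, of 16593 genes tested. They were chosen by name, as the biological spots of the array that carry one of these symbols, and are read by 11 probes of 55681. All 8 genes passed the filter on dim signals. The tissue was epididymal white adipose tissue, a visceral fat pad, and the donors were males of C57BL/6JOlaHsd, an inbred strain of laboratory mouse. They were 10 weeks old on arrival. For 3 weeks fat supplied 10% of their dietary energy, and for another 6 weeks 40%. After a fast each mouse spent 6 hours in an indirect calorimetry system, either at 12% oxygen (hypoxia, 10 mice) or at 20.9% oxygen (normoxia, 12 mice). Diet and fasting were shared by both groups, as far as the labels name mice, and no group was left fed. One label text also speaks of a low-fat arm but assigns no mouse to it, and diet is therefore no term here.

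Lipoprotein lipase, the product of Lpl, splits the triglycerides of chylomicrons and very low density lipoprotein particles on the inner wall of capillaries, and so decides how much fat from the blood enters a tissue. Fat cells make the enzyme, LMF1 helps it fold in the endoplasmic reticulum, GPIHBP1 carries it across the capillary endothelium and holds it there, and ANGPTL4 inactivates it. In fat, fasting is known to raise ANGPTL4 and lower the activity of the enzyme, and Angptl4 is a known target of both peroxisome proliferator-activated receptors and hypoxia-inducible factors. CD36 takes up the fatty acids that are released, VLDLR binds triglyceride-rich particles, and FABP4 and FABP5 carry fatty acids inside fat cells, endothelial cells and macrophages.

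The sequences that were read are given first, because 3 of the genes have a pair of probes at different places of the transcript and these pairs did not give the same values. Lpl, Lmf1 and Vldlr each have an inner probe, nearer the transcript's 5′ end, shown in full, and an outer probe, of which the first 30 bases are shown, as for the genes with a single probe. Sequences run 5′ to 3′ and positions are those of the files, on mouse build mm9. The gene is that of the files' own annotation. The exon or untranslated region under each probe is not given, since no annotation of this build was used here.
Lpl inner probe, chr8:71425050-71425109, plus strand, transcript base 1340: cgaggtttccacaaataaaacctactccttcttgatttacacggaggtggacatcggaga
Lpl outer probe, chr8:71430267-71430326, plus strand, transcript base 3484: gaacaccaacccacatgcaaaaccccacaa
Lmf1 inner probe, chr17:25722737-25722796, plus strand, transcript base 455: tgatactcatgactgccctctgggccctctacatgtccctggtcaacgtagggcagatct
Lmf1 outer probe, chr17:25799606-25799665, plus strand, transcript base 1695: ggagtggccactaccagaacccccatctag
Vldlr inner probe, chr19:27321104-27321163, plus strand, transcript base 2867: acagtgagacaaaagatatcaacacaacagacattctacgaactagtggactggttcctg
Vldlr outer probe, chr19:27324050-27324109, plus strand, transcript base 3636: ctttttcaatggttgggacaatggcaatag
Gpihbp1 probe, chr15:75428484-75428543, plus strand: gctggaccaaatttggtaatatagccctcc
Angptl4 probe, chr17:33911880-33911939, minus strand: atggtgctgttgtaggtgctgtggatgcac
Cd36 probe, chr5:17288600-17288659, minus strand: aagaatgaaaaatgaacaattcacatgtga
Fabp4 probe, chr3:10204452-10204511, minus strand: aagaggcctggatggaaatttgcatcaaac
Fabp5 probe, chr3:10016185-10016244, plus strand: gtcaaatgcaacaaacagcttcacttcttt

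Each value is a log2 ratio of a mouse's own RNA (Cy5 dye) to a pool of the RNA of all samples (Cy3 dye), on a 2-colour Agilent array. A value of 0 means the level of the pool, and a difference between groups of 1 would mean a doubling. The ratio of one gene cannot be set against that of another as a level. Precision is limited by the number of arrays. In Cy5, spots well above background made up 18.3% to 66.3% of an array (median 42.8%) in normoxia and 15.6% to 76.8% (median 35.5%) in hypoxia. Slide 1 was the weakest of the 6 slides, with 4 arrays that held normoxia mice 3 and 5 and hypoxia mice 5 and 7. The outer Lpl and Lmf1 probes, the outer Vldlr probe and those of the other 5 genes were well above background on all 22 arrays, as was the inner Lpl probe. The inner Vldlr probe was so on 19 arrays and the inner Lmf1 probe on 13. No spot of these probes was saturated in Cy5 or carried an outlier flag. The labels call the mice biological replicates.

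None of the 8 genes passed the test between hypoxia and normoxia (limma, Benjamini-Hochberg adjusted p under 0.05 over all genes tested), where 0% of all genes passed. Gpihbp1 and Angptl4, the endothelial carrier of the enzyme and its inhibitor, differed by 0.26 and 0.32, hypoxia minus normoxia. Lmf1 differed by -0.19 and the inner part of the Lpl transcript by -0.34. The other differences were 0.16 for Cd36, 0.29 for Fabp4, -0.14 for Vldlr, -0.07 for Fabp5 and -0.11 for Lpl at its outer probe. Before adjustment, the 95% intervals of Gpihbp1 and the inner Lpl probe did not include 0, and those of the other 9 probes did. At an unadjusted p under 0.05, 1 of the 8 genes was counted, Gpihbp1, against 5.3% of all genes (427 higher and 452 lower). The difference was above 0 for 4 of the 8 genes, against 50.4% of all genes, and 3 of the 8 (Gpihbp1, Angptl4 and Fabp4) differed by at least 0.2 in size, against 7.24% of all genes. The standard errors of the 8 genes, 0.10 to 0.24, also lay above the median standard error of all genes, 0.098. In none of the 8 did the groups separate, and the share of all genes whose groups did not overlap was 0%. The median difference of all genes was 0.001.

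**Figure D1:**
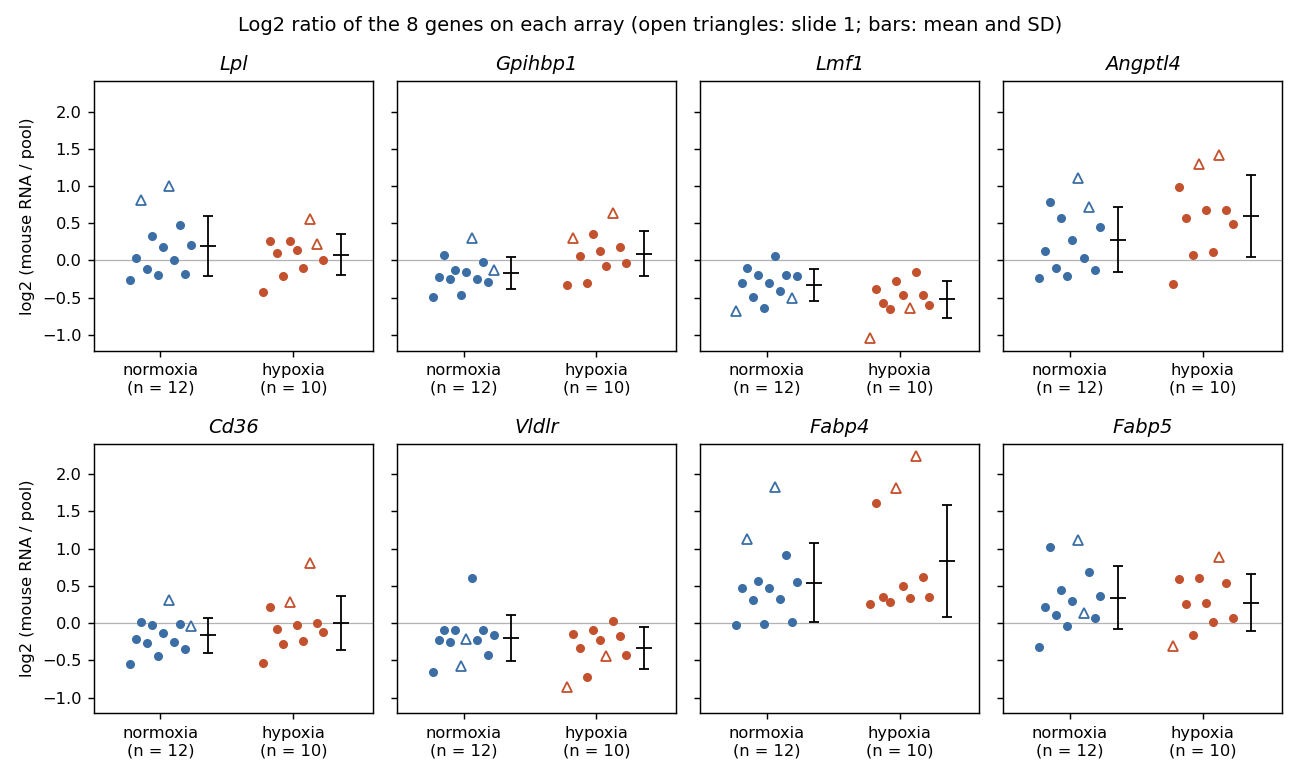
Log2 ratio of mouse RNA to the pool for each of the 8 genes at the probe that represents it (vertical axis), in 12 normoxia and 10 hypoxia arrays. Each point is 1 array, open triangles are the arrays of slide 1, and bars give the mean and SD. The groups overlap in every panel, and the triangles lie toward the upper end for Angptl4 and Fabp4 and toward the lower end for Lmf1.

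Lpl was represented by its outer probe, the brighter of the pair. Its log2 ratio ran from -0.27 through a median of 0.10 to 1.00 in normoxia and from -0.42 through a median of 0.12 to 0.55 in hypoxia. The groups overlapped almost wholly, with a normoxia mouse (replicate 3) highest of all and a hypoxia mouse (replicate 9) lowest. The means were 0.19 ± 0.40 (SD, n = 12) and 0.08 ± 0.28 (SD, n = 10), a difference of -0.11 ± 0.14 (SE) with a 95% interval of -0.39 to 0.18 (limma adjusted p = 0.99).

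The inner Lpl probe gave a wider gap. In normoxia its log2 ratio ran from -0.04 through a median of 0.17 to 0.72, and in hypoxia from -0.57 through a median of -0.14 to 0.60. Of the hypoxia mice, 9 of 10 lay below the normoxia mean and 6 below every normoxia mouse, while hypoxia replicate 4 was above every normoxia mouse except replicate 3. The means were 0.24 ± 0.20 (SD, n = 12) and -0.10 ± 0.34 (SD, n = 10), a difference of -0.34 ± 0.11 (SE) with a 95% interval of -0.57 to -0.11. This did not pass over the 21460 probes tested, of which 0% passed (limma p = 0.00537, adjusted p = 0.771). A two-sided permutation test of this probe alone gave p = 0.00877, and p = 0.0189 with labels permuted within slides, neither adjusted for the 11 probes examined. The gap between outer and inner probe was higher in hypoxia by 0.23, a difference that the permutation test did not set apart (p = 0.0951). Over the 22 arrays the deviations of both probes from their group means correlated at r = 0.55. The lower value was thus seen at the inner probe, and whether the probes differ was not resolved at this number of mice.

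Lmf1, the maturation factor that the enzyme needs to fold, was represented by its outer probe. The log2 ratio ran from -0.68 through a median of -0.30 to 0.06 in normoxia and from -1.05 through a median of -0.52 to -0.15 in hypoxia. The hypoxia mice were lower in the middle of the range, 8 of 10 below the normoxia mean, but 1 alone lay below every normoxia mouse. The difference of the means, -0.33 ± 0.22 (SD, n = 12) and -0.52 ± 0.25 (SD, n = 10), was -0.19 ± 0.10 (SE; 95% interval -0.40 to 0.01; limma p = 0.0606, adjusted p = 0.951). The inner Lmf1 probe, dim and not well above background on 9 arrays, differed by -0.05 ± 0.11 (SE; limma adjusted p = 0.993). Its gap to the outer probe differed between groups by -0.15 (permutation p = 0.27).

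Gpihbp1, the anchor of the enzyme on capillary endothelium, had the lowest p of the 8 genes. Its log2 ratio ran from -0.49 through a median of -0.19 to 0.30 in normoxia and from -0.33 through a median of 0.09 to 0.64 in hypoxia. The hypoxia mice lay mostly in the upper part, 8 of 10 above the normoxia mean and 3 above every normoxia mouse, yet the lowest 2 lay below the normoxia mean. The means were -0.17 ± 0.22 (SD, n = 12) and 0.09 ± 0.30 (SD, n = 10), and the difference 0.26 ± 0.11 (SE; 95% interval 0.04 to 0.48). The p of limma was 0.0208, rank 397 of all genes, and 0.863 after adjustment. The permutation test gave p = 0.027, and p = 0.0404 within slides. In bulk tissue, more cells of a type and more RNA per cell cannot be told apart. Endothelial marker genes are therefore given with the other markers at the end.

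Angptl4, the secreted inhibitor of the enzyme, had the largest mean difference of the 8 genes and a wide spread. In normoxia its log2 ratio ran from -0.24 through a median of 0.20 to 1.11, and in hypoxia from -0.32 through a median of 0.62 to 1.41. Of the hypoxia mice, 7 of 10 lay above the normoxia mean and 2 above every normoxia mouse, both of them on slide 1, while hypoxia replicate 4 was the lowest of all 22 mice. The means were 0.28 ± 0.44 (SD, n = 12) and 0.60 ± 0.55 (SD, n = 10). The difference was 0.32 ± 0.19 (SE; 95% interval -0.07 to 0.71; limma p = 0.104, adjusted p = 0.962; permutation p = 0.144). On the scale of the ratio this is 1.25-fold, and the interval holds no change as well as a rise of more than that.

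**Figure D2:**
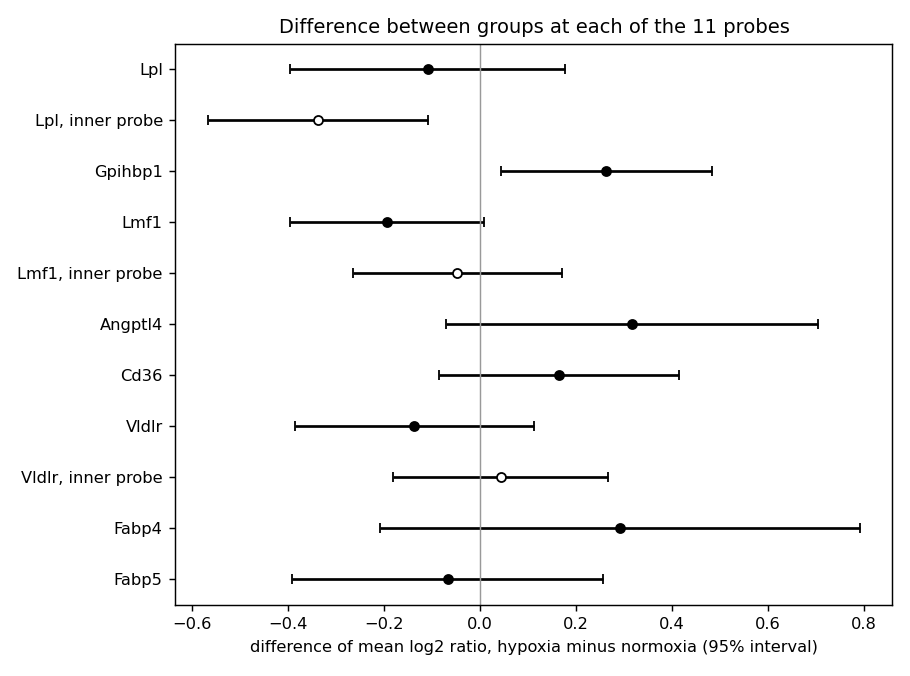
Difference of the mean log2 ratio, hypoxia minus normoxia (horizontal axis), for each of the 11 probes, with 95% intervals from limma. Filled points are the probes that represent a gene and open points the inner probes of Lpl, Lmf1 and Vldlr. The intervals of Gpihbp1 (0.04 to 0.48) and of the inner Lpl probe (-0.57 to -0.11) lie apart from 0 before adjustment, and the other 9 include it.

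Cd36, the membrane receptor for long-chain fatty acids, ran from -0.55 through a median of -0.17 to 0.32 in normoxia and from -0.53 through a median of -0.06 to 0.81 in hypoxia (log2 ratio). The ranges shared their lower end, and 1 hypoxia mouse, replicate 5 of slide 1, lay above all normoxia mice. The means were -0.16 ± 0.23 (SD, n = 12) and 0.002 ± 0.37 (SD, n = 10), and the difference was 0.16 ± 0.12 (SE; 95% interval -0.09 to 0.42; limma adjusted p = 0.981).

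Vldlr, the receptor that binds very low density lipoprotein at the cell surface, ran from -0.65 through a median of -0.22 to 0.60 in normoxia and from -0.86 through a median of -0.28 to 0.03 in hypoxia (log2 ratio, outer probe). Normoxia replicate 1 stood well above the rest, 2 hypoxia mice lay below every normoxia mouse, and the others overlapped. The means were -0.20 ± 0.31 (SD, n = 12) and -0.34 ± 0.28 (SD, n = 10), and the difference was -0.14 ± 0.12 (SE; 95% interval -0.39 to 0.11; limma adjusted p = 0.981). The difference was -0.06 without normoxia replicate 1 and -0.08 without hypoxia replicate 7. The inner probe had the opposite sign, 0.04 ± 0.11 (SE), and the gap between the probes differed between groups by -0.18 (permutation p = 0.196). No direction can be read for Vldlr from this pair.

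Fabp4, the abundant fatty acid carrier of fat cells, ran from -0.02 through a median of 0.47 to 1.82 in normoxia and from 0.26 through a median of 0.42 to 2.25 in hypoxia (log2 ratio). Here the means and medians differ in sign: the hypoxia median was the lower one, and only 4 of 10 hypoxia mice lay above the normoxia mean. The 3 highest hypoxia mice, replicates 7 and 5 of slide 1 and replicate 1 of slide 6, lay at 1.62 or above, and the other 7 at 0.61 or below. The means were 0.55 ± 0.54 (SD, n = 12) and 0.84 ± 0.75 (SD, n = 10), and the difference was 0.29 ± 0.24 (SE; 95% interval -0.21 to 0.79; limma adjusted p = 0.981).

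Fabp5, the related carrier that is also found in endothelium and macrophages, ran from -0.33 through a median of 0.26 to 1.12 in normoxia and from -0.31 through a median of 0.26 to 0.89 in hypoxia (log2 ratio). The groups coincided. The means were 0.34 ± 0.42 (SD, n = 12) and 0.27 ± 0.38 (SD, n = 10), and the difference was -0.07 ± 0.16 (SE; 95% interval -0.39 to 0.26; limma adjusted p = 0.994). Without normoxia replicate 3 the difference was 0.003, so no sign can be read. Close copies of Fabp5 exist in the mouse genome, and whether its probe also reads them was not tested.

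Slide 1, with the weakest arrays, held many of the extreme values. Its 4 Fabp4 values ran from 1.13 to 2.25, against -0.02 to 1.62 on the other 18 arrays. For Angptl4 they ran from 0.72 to 1.41 against -0.32 to 0.99, and for Lmf1 from -1.05 to -0.50 against -0.65 to 0.06. The same was true of genes of like brightness: the median of the 200 genes nearest to Fabp4 in mean intensity was 0.94 to 1.36 on slide 1 and 0.16 to 0.40 elsewhere. For Angptl4 it was 0.80 to 1.10 on slide 1 and 0.08 to 0.29 elsewhere. The slide holds 2 mice of each group, and these medians had nearly the same mean in both groups, 0.43 in normoxia and 0.43 in hypoxia for Fabp4. Without slide 1 the differences were 0.26 for Angptl4, 0.22 for Gpihbp1, -0.17 for Lmf1 and -0.25 for the inner Lpl probe. That of Cd36 was 0.09, of Fabp4 0.18, of Lpl at the outer probe -0.04 and of Fabp5 -0.01, each smaller by over 1.5 times. A single mouse on that slide, hypoxia replicate 7, weighed most on Fabp4, whose difference was 0.14 without it. The difference of Angptl4 was 0.23 without that mouse and 0.42 without hypoxia replicate 4 of slide 5. Without hypoxia replicate 5 the difference of Cd36 was 0.08, and without normoxia replicate 3 that of the outer Lpl probe was -0.03.

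Comparing mice on the same slide gives a second reading, since 5 slides carry 2 mice of each group. Lmf1 was lower in hypoxia on all 5 slides, by -0.32 to -0.05, and the permutation test within slides gave p = 0.0143, not adjusted for the 11 probes examined. Its dim inner probe was above 0 on 2 of the 5 slides, with differences from -0.45 to 0.34 and p = 0.759 within slides. The inner Lpl probe was lower on all 5, by -0.77 to -0.01. Gpihbp1 was higher on 4 of 5 slides, with differences between -0.10 and 0.39, and Angptl4 on the same number, between -0.08 and 0.44. For these and for Cd36 (-0.18 to 0.40) slide 6 gave the lowest value. Fabp5 (-0.46 to 0.39), Vldlr (-0.47 to 0.15), Fabp4 (-0.08 to 0.55) and the outer Lpl probe (-0.52 to 0.11) changed sign from slide to slide.

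**Figure D3:**
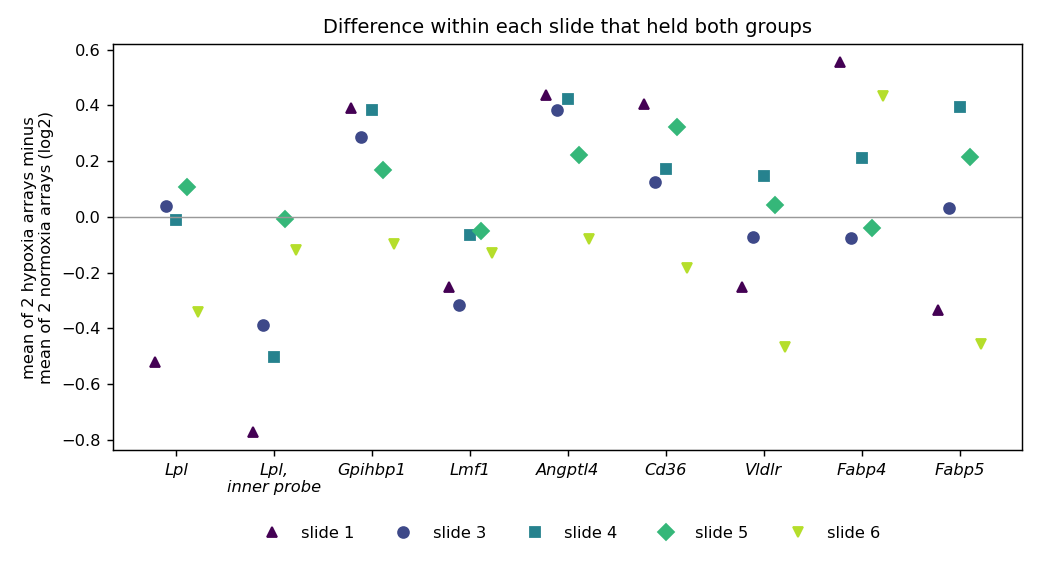
Mean log2 ratio of the 2 hypoxia arrays minus that of the 2 normoxia arrays (vertical axis) within each of the 5 slides that held both groups, for the 8 genes and the inner Lpl probe. All 5 points of Lmf1 (-0.32 to -0.05) and of the inner Lpl probe (-0.77 to -0.01) lie below 0, and the points of Fabp5 run from -0.46 to 0.39.

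The genes were then compared mouse by mouse, as deviations from their group's mean over 22 arrays, in 28 pairs. Gpihbp1 and Angptl4 ran together most closely, with Pearson's r = 0.84 and Spearman's rho = 0.81. The permutation test gave p = 2e-05 for each (adjusted p = 0.00056 over the 28 pairs), near 1e-05, the smallest that 100000 resamples can give. The pair kept r = 0.77 (adjusted p = 0.00196) without the 2 arrays farthest from the median of the first gene. Its r was 0.88 on deviations from the means of slide and group. A group had 2 mice on a slide, so their deviations are equal in size and opposite in sign. The permutation test took all 22 as separate, so its p-values in this setting are too small and are not printed. On ratios centred on genes of like intensity r was 0.69 (adjusted p = 0.00401). It was the 1 pair of 28 that passed on the log2 ratios, without the 2 farthest arrays and on centred ratios. An inhibitor and an anchor of the same enzyme thus varied together between these mice, each with a difference above 0 in hypoxia.

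Lpl and Cd36 formed the next pair, with r = 0.74 (adjusted p = 0.00084) and rho = 0.71 (adjusted p = 0.0042). It had r = 0.73 without the 2 farthest arrays, past the threshold, 0.67 within slide and group, and 0.39 on centred ratios (adjusted p = 0.19). In all 11 pairs passed at an adjusted p under 0.05, 10 with r above 0 and 1 below, the last being Lmf1 with Angptl4 (r = -0.63, adjusted p = 0.00941). Lmf1 with Angptl4 did not pass without the 2 farthest arrays (r = -0.48, permutation adjusted p = 0.148) or on centred ratios (r = -0.38, adjusted p = 0.193). The share among pairs of any genes was not computed, so the count cannot be read as particular to this group. Each member's deviations were also set against the median of genes of like intensity. There r ran from -0.003 for Fabp5 to 0.78 for Fabp4. Lpl with Angptl4 and Lpl with Fabp5 just missed, both with an adjusted p of 0.051. The set of pairs depended on the setting. Without the 2 farthest arrays 3 pairs passed, all of them among the 11. On deviations from slide and group means 5 passed, 4 of them among the 11, by a test that was too lenient there. On centred ratios 4 passed, 2 of them among the 11. In the last setting Lpl ran with Vldlr (r = 0.72) and with Fabp5 (r = 0.69), and Vldlr with Fabp5 (r = 0.66), beside Gpihbp1 with Angptl4. Lpl with Vldlr was at r = 0.15 before centring and at 0.72 within slide and group. Fabp4 and Fabp5, products of related genes, did not run together in these mice (r = 0.14, adjusted p = 0.612, and 0.07 on centred ratios).

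**Figure D4:**
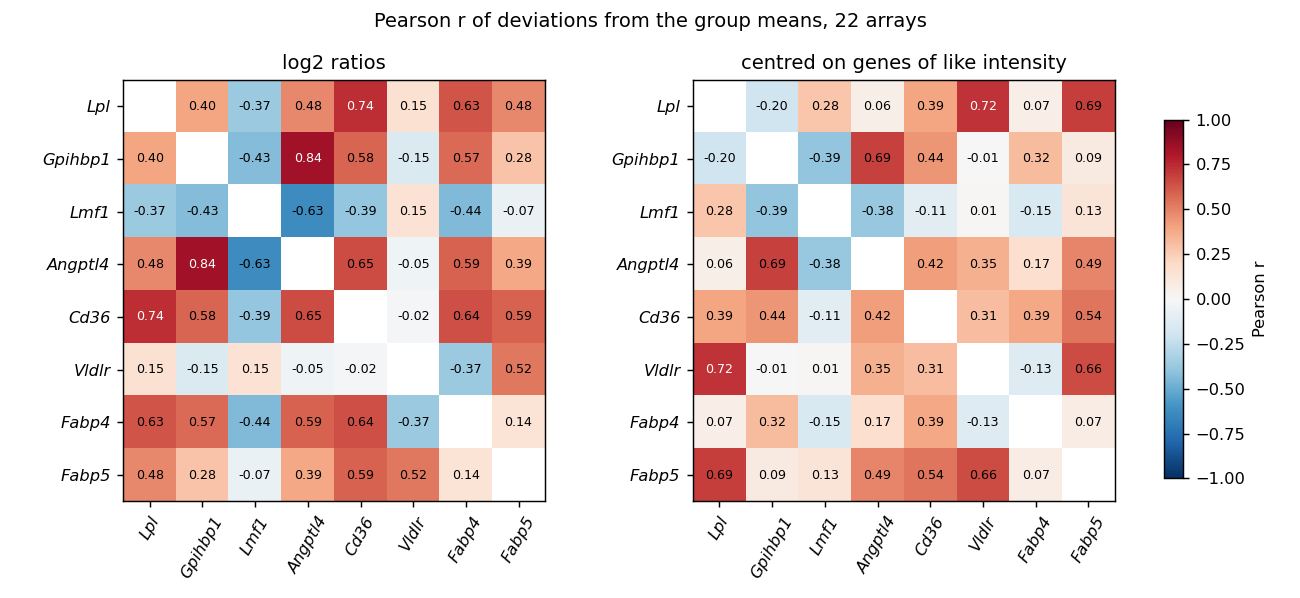
Pearson's r between the deviations of each pair of the 8 genes from their group means over 22 arrays, as coloured cells with the value printed, on a scale from -1 to 1. The left panel uses the log2 ratios and the right panel ratios centred on the 200 genes nearest in intensity. Gpihbp1 with Angptl4 stays at 0.84 and 0.69, while Lpl with Fabp4 goes from 0.63 to 0.07 and Lpl with Vldlr from 0.15 to 0.72.

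Over all genes with a symbol, the 3 whose deviations were most like those of each member were named, with r over 22 arrays and no test. Nearest to Lpl were Acp5, a phosphatase of macrophages and osteoclasts (r = 0.90), the glycolytic enzyme Aldoa (0.89) and the lysosomal protease Ctsb (0.84). On ratios centred on genes of like intensity these were 0.81, 0.48 and 0.82. Nearest to Gpihbp1 was Angptl4 (0.84), then Taldo1 of the pentose phosphate pathway (0.84) and the amyloid precursor-like Aplp2 (0.82).

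Aplp2 was also nearest to Angptl4 (0.92, and 0.86 centred), followed by the respiratory chain subunit Cox5a (0.90) and the metalloproteinase Adam15 (0.87). Cd36 ran closest to the desaturase family member Fads3 (0.88), Tmem109 (0.85) and the lipid droplet protein Cidec (0.84). Fabp4 ran closest to Atp9a (0.88), the cytochrome Cyb5a (0.86) and the mitochondrially encoded COX2 (0.83), values that were 0.66, 0.42 and 0.54 on centred ratios. The likeness of Fabp4 to its nearest genes was thus lower once genes of the same brightness were taken as the level. Lmf1 ran closest to Rpap1, Tmem234 and Mcfd2 (all 0.84, and 0.81 to 0.82 centred), and Vldlr to Serf1 (0.82), Cd320 (0.77) and Tmed5 (0.77). Fabp5 ran closest to Gm14207 (0.84), Mmd (0.83) and the liver glycogen synthase Gys2 (0.82).

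The wider pathway was read from 5 lists of related genes, none of which had a member past the threshold of limma's adjusted p over all genes. Of 23 genes for the folding, sorting, cleavage and control of the enzyme, 21 were tested, 14 with a difference above 0 and 7 below (median 0.06, against 0.001 for all genes). The lowest was Angptl8, a feeding-induced partner of the ANGPTL inhibitors, with a log2 ratio of 0.40 ± 0.38 (SD, n = 12) in normoxia and 0.01 ± 0.30 (SD, n = 10) in hypoxia. Its difference was -0.39 ± 0.14 (SE; limma p = 0.00882, adjusted p = 0.79), opposite in sign to that of Angptl4. The heparan sulphate proteoglycan Hspg2 followed with -0.20 ± 0.10 (SE), and the highest were the syndecan Sdc1 (0.20 ± 0.13) and the chaperone Canx (0.17 ± 0.11).

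Of the genes for capillary control of fatty acid uptake, 13 of 14 were tested, 5 above 0 and 8 below (median -0.03). At an unadjusted p under 0.05, 2 were higher and 2 lower. Sema3g, an endothelial semaphorin, had the lowest difference, -0.30 ± 0.10 (SE; limma p = 0.00586, adjusted p = 0.746), and Flt1, a receptor that binds VEGFB, was at -0.16 ± 0.07. The transcription factor Klf4 (0.24 ± 0.12) and the VEGF co-receptor Nrp1 (0.21 ± 0.09) had the highest, and Tcf15, which with Meox2 drives fatty acid transport genes in endothelium, was at -0.18 ± 0.11. Endothelial genes of the same list thus lay on both sides of 0, while Gpihbp1 lay above it.

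Fatty acid transport and activation was the flattest list: 21 of 28 genes were tested, 10 above 0 and 11 below, with a median of -0.002 and none at an unadjusted p under 0.05. The acyl-CoA synthetase Acsl1 differed by -0.05 ± 0.14 (SE), the transporter Slc27a1 by -0.06 ± 0.12 and the caveolar Cav1 by -0.002 ± 0.13; these 3 were chosen after their values were seen, as familiar genes of the pathway. The ends of the list were Slc27a2 (0.23 ± 0.43) and Zdhhc4, a palmitoyl transferase that acts on CD36 (0.16 ± 0.08), and Fabp9 (-0.19 ± 0.37) and Fabp12 (-0.14 ± 0.12). Slc27a2 and Fabp9 were well above background on 10 arrays.

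Of the lipoprotein receptors and other lipases, 10 of 15 were tested, 6 above 0 and 4 below (median 0.04), none at an unadjusted p under 0.05. Lrp2 (0.29 ± 0.55, SE) and Apoe (0.18 ± 0.17) stood highest and Lipa, the lysosomal acid lipase (-0.10 ± 0.11), lowest. All 26 targets of the fat cell regulator PPARG were tested, 15 above 0 and 11 below (median 0.01). Pdk4, which holds back glucose oxidation, had the highest difference, 0.45 ± 0.18 (SE; limma p = 0.0168, adjusted p = 0.846). Hilpda, a lipid droplet protein that inhibits the lipase ATGL, was at 0.43 ± 0.13 (limma p = 0.00289, adjusted p = 0.598). Both are also known to respond to signals other than PPARG. Cidea (-0.26 ± 0.17) and Dgat1 (-0.20 ± 0.12) were lowest, and Pparg itself was at -0.04 ± 0.10.

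**Figure D5:**
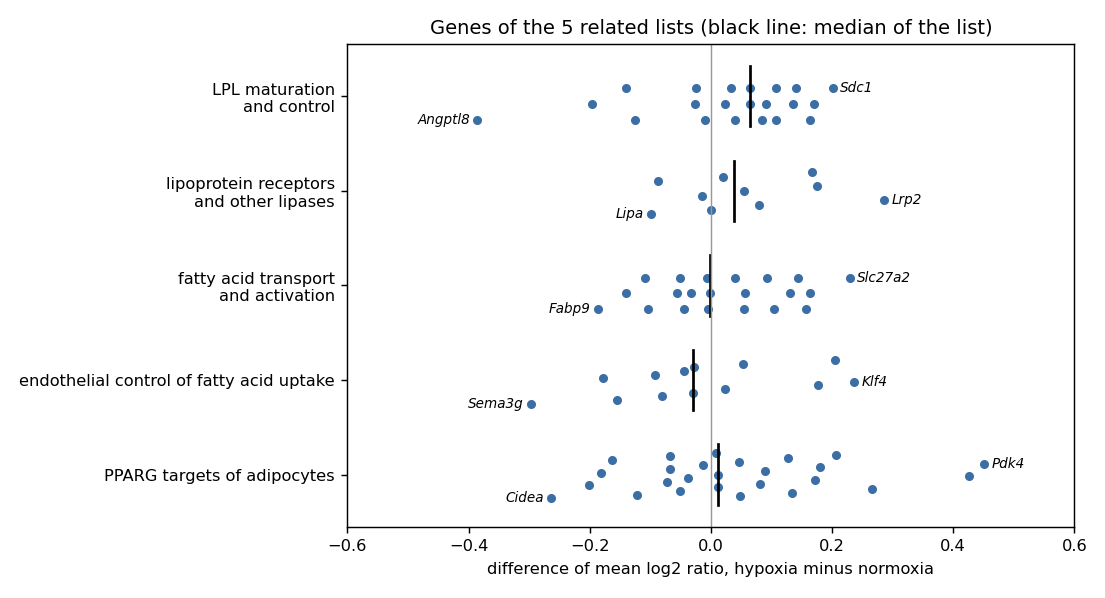
Difference of the mean log2 ratio, hypoxia minus normoxia (horizontal axis), of every tested gene in 5 lists related to the lipase system (rows); each point is a gene, black lines are list medians, and the genes at both ends are named. The medians lie between -0.03 and 0.06, and the lowest and highest points are Angptl8 (-0.39) and Pdk4 (0.45).

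Markers of the cell types that make these transcripts were read in the same arrays. All 10 adipocyte markers, which define the labelled tissue, were well above background on all 22 arrays. Of them 8 lay above 0 (median difference 0.04). The lowest, named after its value was seen, was the adrenergic receptor Adrb3, at -0.76 ± 0.26 (SE; limma p = 0.00701, adjusted p = 0.748), the 1 of the 10 at an unadjusted p under 0.05. The mean score of the 10 ran from -0.44 to 0.54 in normoxia and from -0.23 to 0.42 in hypoxia. All 12 endothelial markers were measured, 8 above 0 (median difference 0.03) and 1 of them at an unadjusted p under 0.05, with scores from -0.19 to 0.27 in normoxia and -0.16 to 0.16 in hypoxia. Of the macrophage markers, 11 of 12 were measured, 10 above 0 (median 0.13) and 2 of them at an unadjusted p under 0.05, with scores from -0.25 to 0.15 in normoxia and -0.16 to 0.40 in hypoxia. None of these genes passed limma's adjusted p, and each measured one had a clear Cy5 signal on 10 arrays or more.

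Red blood cell markers were above 0 in 6 of 6 measured genes (median 0.39, 4 at an unadjusted p under 0.05), and mesothelial ones in 9 of 9 (median 0.18). Progenitor markers were above 0 in 4 of 10 (median -0.003). Of 5 muscle markers 1 was measured, Acta1 (0.22). Sperm and testis markers were below 0 in 4 of 4 measured genes of 6 (median -0.53, none at an unadjusted p under 0.05), with scores from -1.60 to 3.26 in normoxia and -1.30 to 1.69 in hypoxia. The highest score was that of normoxia replicate 1, where Fabp9 of the transport list was also highest, at 3.08. Over the 24 pairs of a member with the adipocyte, endothelial or macrophage score, 1 passed: Fabp4 with the adipocyte score (r = 0.67, adjusted p = 0.0158; rho = 0.59, adjusted p = 0.0941). It was at r = 0.39 (adjusted p = 0.422) without the 2 farthest arrays and at 0.49 within slide and group. Gpihbp1 and the endothelial score had r = 0.35 (adjusted p = 0.209), and Fabp5 and that score r = 0.58 (adjusted p = 0.0652). The part of the cell types in the differences of the 8 genes was not tested.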

How the data were processed

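Agilent Feature Extraction 10.7.3.1 made the deposited scanner files, per the submitters' processing notes and the headers, and placed the spots on mm9. The mean signals and local backgrounds in them are deposited intensity values without normalization. Per the file headers, the log10 ratio stored beside them was background-subtracted and dye-normalized by that program. The value table that the authors deposited holds log2 values with equal medians over the arrays, and the authors' steps behind it are not given in the sources used here. Cy5 holds each mouse and Cy3 the pool, with no dye swap, so a dye effect would be shared by both groups.

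Here the background was corrected with normexp (offset 50) and arrays were normalized one by one by loess in which control spots had weight 0 (limma 3.58.1, R 4.3.3). Spots with an outlier flag were left out and saturated ones kept. Testing required a Cy5 signal well above background on 10 arrays or more and 2 or more values per group. A gene was represented by its brightest tested probe. Group was the only term in lmFit and eBayes. Benjamini-Hochberg adjustment ran over 16593 genes, or 21460 probes for the inner probes. Permutation tests were two-sided with 100000 resamples. Fits were tested on simulated data. A marker score averages the log2 ratios of the measured genes after centring each gene over the 22 arrays. Names came from the files, updated through RefSeq GRCm38.p6: 27235 probes by accession, 3581 by symbol and 565 by synonym, with 24300 kept as in the file. In the lists, the genes past the threshold and the 2 highest and 2 lowest are named, beside exceptions stated or clear from their role; 1 such gene is not reported here. The members and lists were chosen with earlier results of these data known.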

Additional observations from a re-analysis of the deposited data

Results flagged for a closer look

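In groups of 4 to 10 samples, the values of the 8 genes, of the named genes of the lists and of the marker scores were searched for single mice that stood far apart, 38 sets of hypoxia values in all; chance alone sets apart about 1 in 20. The search found 5, none of them in the 8 genes. Apoe, the ligand of lipoprotein receptors, had a log2 ratio of 1.70 in hypoxia replicate 7, on slide 1, where the other hypoxia mice lay between 0.07 and 0.83. Klf4 was at 0.71 in hypoxia replicate 1 and between -0.45 and 0.14 in the others. Pdk4 was at -1.42 in hypoxia replicate 10 against -0.61 to 0.30, the opposite direction to its mean difference. Tcf15 was at -1.17 in hypoxia replicate 6 against -0.65 to -0.26. The sperm and testis marker score, of which 4 of 6 genes were measured, was at 1.69 in hypoxia replicate 10 against -1.30 to 0.29.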

How the results depend on the processing

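Over 15 settings, the 8 genes at their representing probes kept their direction and none passed the threshold. The ranges were 0.16 to 0.32 for Angptl4, 0.13 to 0.26 for Gpihbp1, 0.03 to 0.17 for Cd36, 0.11 to 0.30 for Fabp4, -0.30 to -0.12 for Lmf1, -0.25 to -0.03 for Lpl, -0.21 to -0.05 for Vldlr and -0.19 to -0.002 for Fabp5. The lowest adjusted p was 0.359, for Gpihbp1. The inner Lpl probe ranged from -0.44 to -0.25 (lowest adjusted p 0.285). The inner Vldlr probe turned to -0.039 with Feature Extraction's log ratio and to -0.0196 in the deposited value table, and the inner Lmf1 probe to 0.0601 in that table; the cause was not tested. The number of genes past the threshold, 0 in the main setting (879 at an unadjusted p under 0.05), was 2 with slide as a fixed block, 1 with Feature Extraction's log ratio, 1 with scaling between arrays, 2 without slide 1, 11 with array weights, 3 without hypoxia replicate 7 and 5 with ratios centred on genes of like intensity, and none of these was one of the 8. The pairs of members that passed, 11 in the main setting, were 3 without the 2 farthest arrays and 4 on centred ratios. On deviations from slide and group means they were 5, by a test that was too lenient there. Centring on like intensity, leaving out single arrays and all settings for the inner probes were chosen after seeing the data. Replicate numbers are shared by the groups but do not pair the mice: same-numbered deviations correlated at -0.47 to 0.25. With the replicate block 0 genes passed. With 12 and 10 mice the intervals of the 8 differences leave changes of the size of 0.2 unresolved, most of all for Fabp4 and Angptl4.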
